A study of Mus musculus with 4 samples.

Results

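The 35 genes described here encode the contractile apparatus of smooth muscle and the proteins that mark pericytes, the mural cells of capillaries. They were taken by symbol from the deposited table of normalized read counts, where each of the 35 has 1 row among 39179 genes. Of these, 29 are contractile or cytoskeletal genes of smooth muscle, 5 are pericyte genes and 1, Susd5, was given no role. RNA sequencing of polyadenylated RNA compared epididymal white adipose tissue of mice with and without Nck2, which encodes an SH2 and SH3 adaptor protein that links tyrosine kinases to actin. The 2 WT libraries came from Nck2+/+ mice and the 2 KO libraries from Nck2-/- mice, both of a mixed genetic background. Age, the construction of the mutant allele and the number of animals behind each library are not given in the sources used here. Whether the 2 libraries of a genotype are separate animals is also not stated, and the p-values therefore reflect only library-to-library spread, which may be technical.

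Smooth muscle contracts when calcium and calmodulin activate myosin light chain kinase, which phosphorylates the regulatory light chain and lets myosin pull on actin filaments anchored in dense bodies. Most genes of this apparatus are switched on by serum response factor with its cofactor myocardin, which act through the CArG box, a short A and T rich element. Gamma smooth muscle actin, calponin 1 and desmin mark smooth muscle, with gamma actin highest in the walls of hollow organs such as the intestine and the male ducts. Pericytes sit on capillary endothelium and are recognised by genes such as Rgs5, Notch3 and Cspg4.

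The libraries held between 31831904 and 37980391 reads assigned to genes. Nck2 itself stood at 1279 and 1667 normalized counts for WT, compared with 1076 and 947 for KO, a log2 difference of -0.53 ± 0.16 (SE) with an adjusted p of 0.0509. Both KO libraries lay below both WT libraries without passing the test, and the counts do not show which exons the reads came from. Mature adipocyte genes, which define the labelled tissue, took 1.98% and 1.34% of WT reads and 4.30% and 4.66% of KO reads. Genes of the male tract epithelium, a tissue the labels do not name, took 3.73% and 4.77% of WT reads but 0.0014% and 0.00099% of KO reads. In that list of 12 genes, 6 were at 0 in KO replicate 1 and 3 in KO replicate 2, and Akr1b7 was the most abundant. Since both WT libraries carry this signal and neither KO library does, genotype and tissue content cannot be told apart in any comparison that follows.

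The CArG box is shown here because it is the element through which myocardin and serum response factor act on contractile genes. Promoters of 30 of the 35 genes were found in a RefSeq table (GRCm38.p6). Those of Actg2, Myh11, Tagln, Myocd and Higd1b were not in it, so they were not searched. In the others, the 250 bases before each start were searched for CC, 6 middle bases of which at least 5 are A or T, and GG. This pattern reads the same on both strands. Of 25 contractile genes with a promoter, 7 (28%) held it, against 9.78% of all 27025 symbols in the table. None of 4 pericyte genes held it, and Susd5 did. With all 6 middle bases A or T, the box was in 4 of 25 contractile genes (16%) and in 1.62% of all symbols. The MCAT element CATTCC, searched on both strands, was in 12 of 25 contractile genes (48%), 1 of 4 pericyte genes and 14.4% of all symbols. A match describes letters in this window and is not a binding site. Windows of 30 bases on the gene's strand follow, 5′ to 3′, with the box in capitals.
Acta2, minus strand, chr19:34255438-34255467, box from 84 bases before the start: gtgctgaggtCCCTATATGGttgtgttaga
Acta2, minus strand, chr19:34255388-34255417, box from 34 bases before the start: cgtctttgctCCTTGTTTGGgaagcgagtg
Myl9, plus strand, chr2:156775293-156775322, box from 161 bases before the start: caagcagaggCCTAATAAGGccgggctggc
Myl9, plus strand, chr2:156775355-156775384, box from 99 bases before the start: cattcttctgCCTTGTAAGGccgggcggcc
Synm, minus strand, chr7:67759962-67759991, box from 239 bases before the start: caacggggagCCTCATAAGGtgtcccagat
Flnc, plus strand, chr6:29432980-29433009, box from 163 bases before the start: tgtccctcatCCCTAAATGGctaagactag
Myl6, minus strand, chr10:128493040-128493069, box from 50 bases before the start: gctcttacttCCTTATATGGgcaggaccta
Vcl, plus strand, chr14:20929161-20929190, box from 227 bases before the start: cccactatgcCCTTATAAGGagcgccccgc
Cnn2, plus strand, chr10:79988534-79988563, box from 56 bases before the start: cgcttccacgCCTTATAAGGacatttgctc
Susd5, plus strand, chr9:114057150-114057179, box from 194 bases before the start: gatggcctttCCCTAATAGGatggaggagc
In the GENCODE annotation of GRCm38, the windows of Acta2, Myl6 and Susd5 overlap an annotated exon of the gene, and the others lie upstream of the gene.

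The contractile genes were far lower in the KO libraries, while the pericyte genes were not. Differences were tested with limma on log2(normalized count + 1) over 16710 genes with a mean of at least 10, with Benjamini-Hochberg adjustment at 0.05, and all fold values are on that scale. Of the 29 contractile genes, 26 fell, 0 rose and 3 did not pass, against 24.4% of all genes tested that fell and 22.4% that rose. At an unadjusted p under 0.05 the count that rose was also 0, edgeR called 0, and DESeq2 called 0 adjusted and 1 unadjusted. Both KO libraries lay below both WT libraries for 27 of the 29, as for 40.6% of all genes. A drop of at least 8-fold that passed the test was seen in 18 of the 29, against 7.51% of all genes. The median log2 difference was -3.70 over the contractile genes, 0.35 over the pericyte genes and -0.01 over all genes. In bulk tissue, fewer cells of a type and less RNA per cell cannot be told apart. The authors' deposited table also had 26 of the 29 contractile genes lower and left 3 uncalled, where 21.7% of its genes were lower and 18.8% higher.

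**Figure D1:**
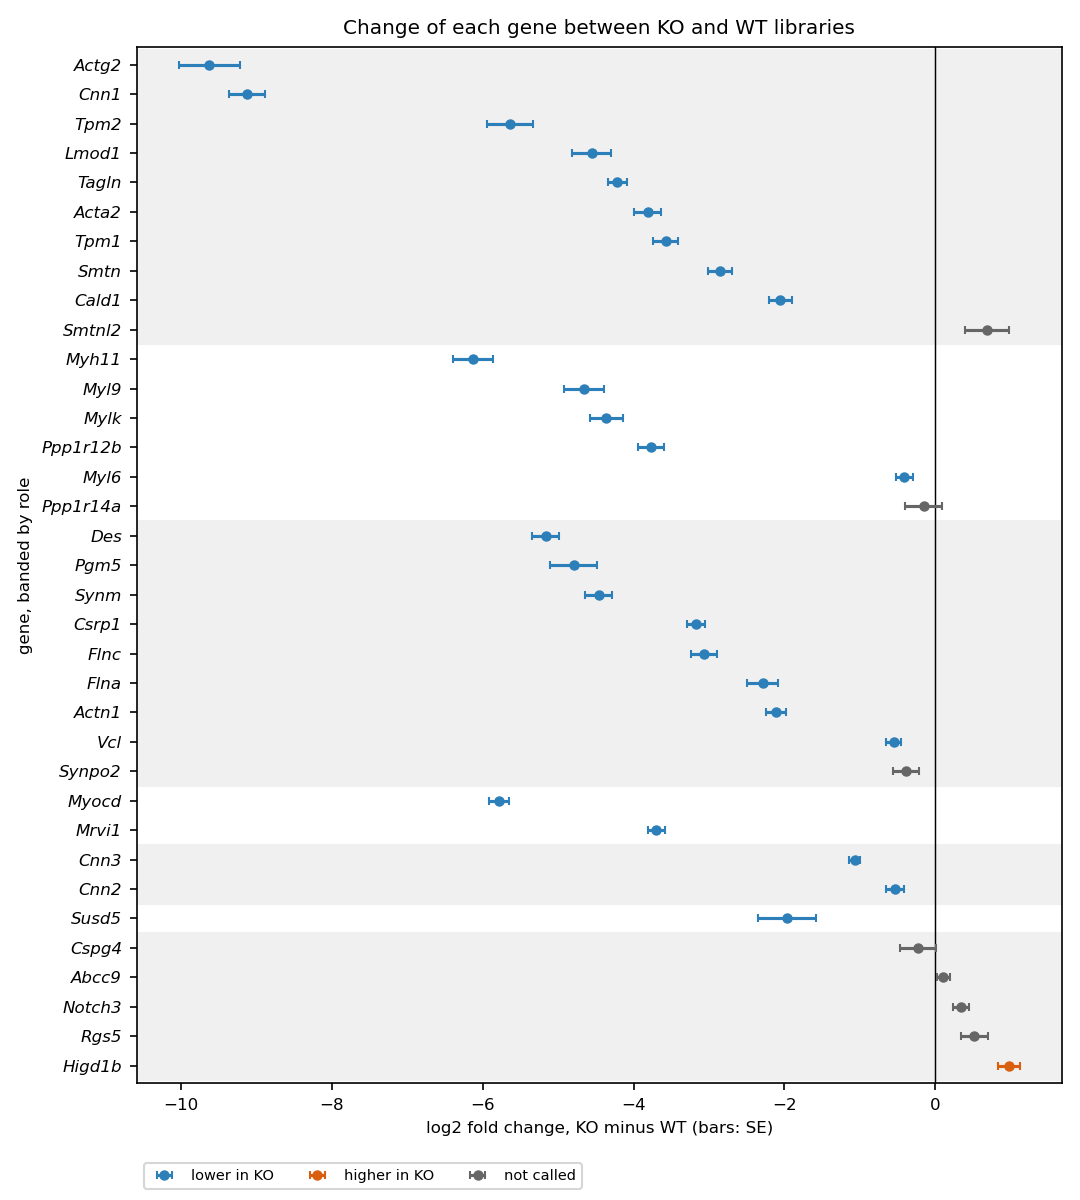
Log2 difference, KO minus WT, of each of the 35 genes with its SE as bars, from limma on 2 libraries a group. The 5 pericyte genes lie between -0.23 and 0.98, and 18 contractile genes lie beyond -3 to the left.

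The thin filament is built from actin, tropomyosin and the proteins that regulate them. Of its 10 genes, 9 fell, against 24.4% of all genes tested. The median log2 difference of the 10 was -4.01. Acta2 encodes alpha smooth muscle actin (chromosome 19, 34241090 to 34255590, minus strand) and reached 86981 and 116072 normalized counts for WT but only 6766 and 7576 for KO. Both WT values were over 10 times both KO values, a 14.0-fold drop (log2 -3.81 ± 0.18 SE, adjusted p = 0.00079). Actg2 encodes gamma smooth muscle actin (chromosome 6, 83512905 to 83536265, minus strand) and had 47325 and 59138 counts in WT against 44.0 and 98.2 in KO. Its drop of 792-fold was the largest among the 35 genes (log2 -9.63 ± 0.41, adjusted p = 0.0007). Of 50-base windows along its transcripts, 0% also occur in another annotated gene, and 0.326% of those of Acta2 do, so nearly all exact matches of this length are particular to 1 of the 2 actins.

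Tropomyosin 2, encoded by Tpm2, had 51460 and 70000 counts in WT and 920 and 1571 in KO, a log2 difference of -5.64 ± 0.31. Its relative Tpm1 had 44740 and 59826 counts in WT and 4408 and 4274 in KO (log2 -3.57 ± 0.16). Caldesmon, the actin-binding inhibitor encoded by Cald1, had 43776 and 55475 counts against 12188 and 11534 (log2 -2.06 ± 0.15). In each of these 3 genes the groups were well apart, but the size of the drop ranged from 4.16-fold for Cald1 to 49.9-fold for Tpm2. Values of Cnn1 and Tagln are added after they were seen. Calponin 1 (Cnn1, chromosome 9, 22099216 to 22109630, plus strand) had 41811 and 50729 counts in WT and 65.6 and 102 in KO, a 557-fold drop (log2 -9.12 ± 0.24). Transgelin (Tagln), an actin-binding protein used as a smooth muscle marker, had 44519 and 52577 counts against 2422 and 2796 (log2 -4.22 ± 0.13). Of its 50-base windows, 58.4% also occur in other genes, mostly an opposite-strand gene, so its counts are less certain where strand was not used. Smoothelin (Smtn) and leiomodin 1 (Lmod1), an actin nucleator, fell by 2.85 and 4.56 on the log2 scale. The smoothelin-like gene Smtnl2 went the other way, with 308 and 303 counts in WT and 372 and 651 in KO. Its log2 difference of 0.69 ± 0.29 did not pass (adjusted p = 0.119), and without KO replicate 1 it was 1.09 with an adjusted p of 0.0113.

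**Figure D2:**
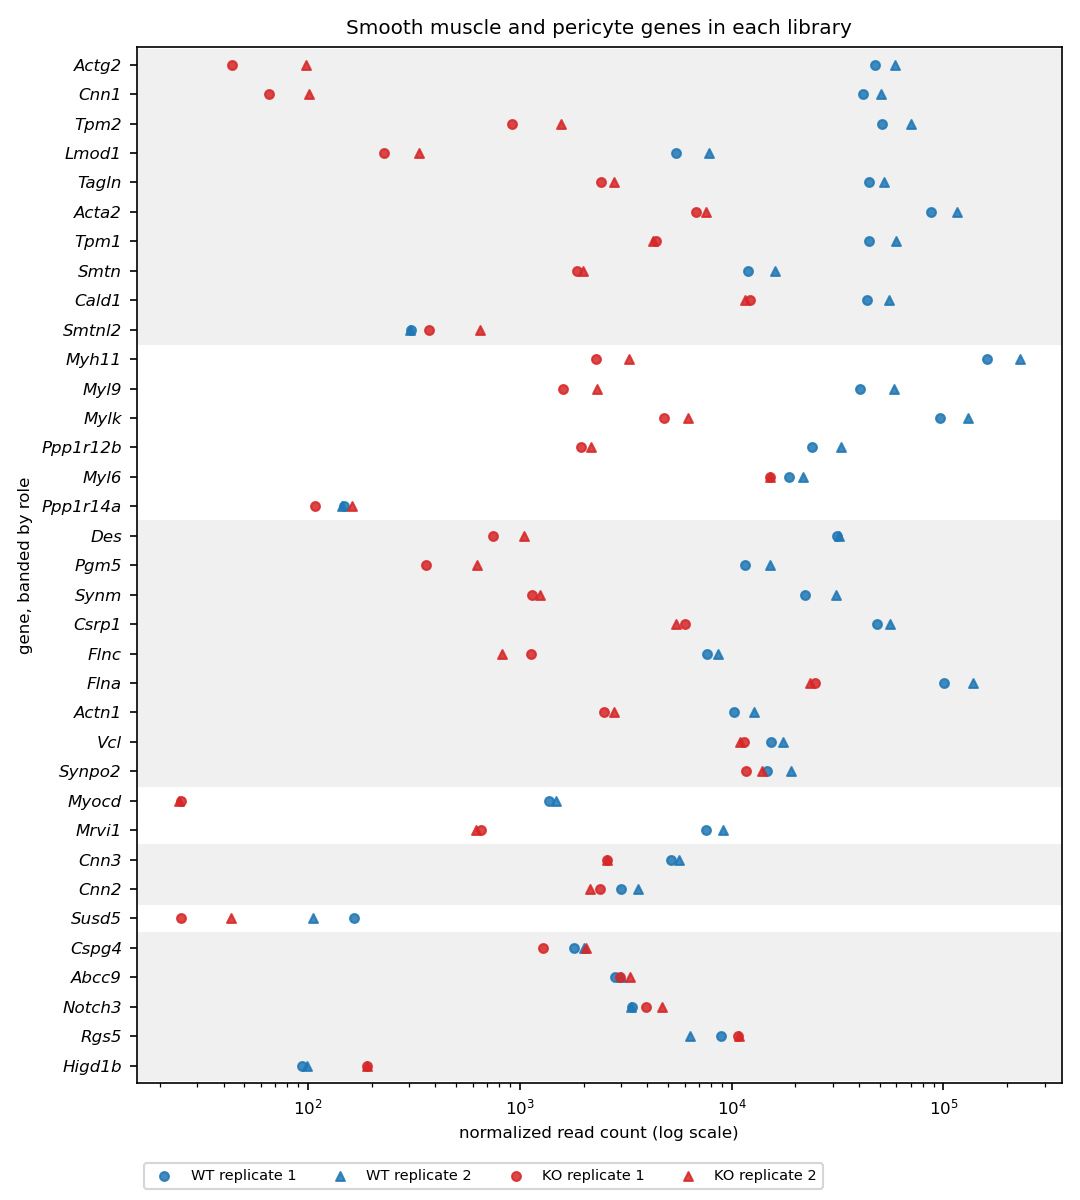
Normalized counts (log scale) of each of the 35 genes in the 2 WT and 2 KO libraries, grouped by role. Actg2 and Cnn1 are at or above 41811 in both WT libraries and at or below 102 in both KO libraries, while the pericyte genes of both genotypes lie close together.

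Myosin and its regulators showed the same split between most of the group and a few genes, with a median log2 difference of -4.06. Of the 6 genes, 5 were lower, where 24.4% of all genes tested were. The heavy chain of smooth muscle myosin, Myh11 (chromosome 16, 14194535 to 14291372, minus strand), had the most reads of the contractile genes in WT, with 159714 and 229497 counts, and 2282 and 3267 in KO. That is a 70.1-fold drop (log2 -6.13 ± 0.27, adjusted p = 0.0007). The regulatory light chain Myl9, whose promoter held 2 of the boxes shown above, had 40547 and 58527 counts against 1605 and 2321 (log2 -4.66 ± 0.26). Mylk, the kinase that phosphorylates it, had 96383 and 130770 counts against 4808 and 6220 (log2 -4.36 ± 0.22). Ppp1r12b, a targeting subunit of the phosphatase that reverses this step, had 23868 and 32729 counts against 1952 and 2165 (log2 -3.76 ± 0.17). For these 4 genes every WT value was at least 10 times every KO value.

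The remaining light chain and the phosphatase inhibitor behaved otherwise. Myl6 encodes the essential light chain that smooth and non-muscle myosins share, and had 18634 and 21792 counts in WT and 15120 and 15240 in KO. Its drop was 1.33-fold (log2 -0.41 ± 0.11, adjusted p = 0.0419), and the call was lost without any 1 of the 4 libraries (adjusted p 0.065 to 0.14). Its promoter held a box with all 6 middle bases A or T, as did those of Vcl, Cnn2 and Myl9. Vcl and Cnn2 also fell little, by 1.46-fold and 1.45-fold, while Myl9 fell by 25.2-fold. Ppp1r14a, the inhibitor of myosin phosphatase known as CPI-17, had 149 and 145 counts in WT and 108 and 162 in KO, so the groups overlapped (log2 -0.15 ± 0.25, adjusted p = 0.636). Without KO replicate 1 its difference was 0.14.

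Dense bodies, intermediate filaments and adhesion plaques hold the filaments in place. In this group 8 of the 9 genes fell, beside 24.4% of all genes tested, and the median log2 difference was -3.07. Filamin A (Flna), a crosslinker of actin found in most cells, had 100751 and 137610 counts in WT and 24857 and 23441 in KO (log2 -2.29 ± 0.21). The LIM protein gene Csrp1 had 48360 and 55771 counts against 6047 and 5478 (log2 -3.17 ± 0.12). Desmin (Des), the muscle intermediate filament protein, had 31543 and 32100 counts against 746 and 1050 (log2 -5.17 ± 0.18). Its partner synemin (Synm) had 22251 and 31245 counts against 1140 and 1253 (log2 -4.46 ± 0.18). Among these 4 genes the drop ranged from 4.88-fold for Flna to 35.9-fold for Des. Pgm5 (aciculin, of adhesion plaques), Flnc (muscle filamin) and Actn1 (alpha-actinin 1) fell by 4.79, 3.07 and 2.11 on the log2 scale.

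Vinculin and synaptopodin 2 stood near the equal level. Vcl, the adhesion plaque protein of most cell types, had 15291 and 17456 counts in WT and 11405 and 10938 in KO (log2 -0.55 ± 0.10, adjusted p = 0.0146). The call was lost without any 1 library (adjusted p 0.0503 to 0.0833), and 25.1% of its 50-base windows also occur in Ap3m1, an opposite-strand gene at 1953, 1863, 2150 and 2251 counts. Synpo2, an actin-bundling protein of the Z-disc and dense body, had 14641 and 19121 counts in WT and 11675 and 13976 in KO. Both KO values were below both WT values, but the log2 difference of -0.39 did not pass (95% interval -0.86 to 0.08, adjusted p = 0.137).

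Myocardin (Myocd, chromosome 11, 65176561 to 65269989, minus strand), the cofactor of serum response factor, had 1379 and 1484 counts in WT and 25.3 and 24.5 in KO. The replicates of each genotype were close and the groups were 55.2-fold apart (log2 -5.79 ± 0.13, adjusted p = 0.00052). Mrvi1, whose product lets cGMP kinase restrain calcium release from the IP3 receptor, had 7555 and 9063 counts against 655 and 619 (log2 -3.70 ± 0.11). The broadly expressed calponins moved less than Cnn1. Cnn3 had 5151 and 5650 counts in WT and 2574 and 2571 in KO, a 2.10-fold drop (log2 -1.07 ± 0.07, adjusted p = 0.0015), although 24.0% of its windows also occur in other genes. Cnn2 had 2994 and 3621 counts against 2404 and 2152, a 1.45-fold drop (log2 -0.53 ± 0.12, adjusted p = 0.0261). This call was lost without any 1 library (adjusted p 0.0514 to 0.127). Susd5, a sushi-domain gene, had 165 and 106 counts in WT and 25.3 and 43.5 in KO (log2 -1.96 ± 0.39, adjusted p = 0.0177). Without WT replicate 1 its adjusted p was 0.129 and without WT replicate 2 it was 0.098.

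None of the 5 pericyte genes fell and 1 rose, where 24.4% of all genes tested fell and 22.4% rose, so the count that rose is near the background. The count that fell was 0 with limma, with edgeR and with DESeq2, and 0 at an unadjusted p under 0.05 in limma. Rgs5, a regulator of G protein signalling and the most abundant of them, had 8930 and 6380 counts in WT and 10764 and 10865 in KO. Both KO values were higher, but the log2 difference of 0.52 ± 0.18 did not pass (95% interval 0.04 to 0.99 before adjustment, adjusted p = 0.0738). Higd1b, a pericyte marker, had 93.7 and 98.6 counts in WT and 189 and 191 in KO, a 1.97-fold rise (log2 0.98 ± 0.15, adjusted p = 0.009). Without WT replicate 1 its adjusted p was 0.0792 and without WT replicate 2 it was 0.0871. Notch3, the receptor required in mural cells of arteries, had 3386 and 3366 counts against 3923 and 4712 (log2 0.35 ± 0.11, adjusted p = 0.0556). Both genotypes were thus apart for these 3 genes in the direction opposite to the contractile genes, as for 38.9% of all genes tested.

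Abcc9 encodes the sulphonylurea receptor subunit of a potassium channel and had 2802 and 3018 counts in WT and 2961 and 3320 in KO (log2 0.11, 95% interval -0.13 to 0.34). Cspg4, the proteoglycan NG2, had 1799 and 2011 counts against 1290 and 2046 (log2 -0.23, 95% interval -0.87 to 0.42). The genotypes overlapped for both genes. For Cspg4 the sign rested on 1 library: without KO replicate 1 the difference was 0.11, and without KO replicate 2 it was -0.56 with an adjusted p of 0.0344. Rgs5 passed with DESeq2 (adjusted p = 0.0303) and without WT replicate 1 (0.76, adjusted p = 0.0376). Notch3 passed with DESeq2 (0.0417), TMM scaling (0.0483), upper-quartile scaling (0.0413) and without KO replicate 1 (0.48, adjusted p = 0.0252). In the authors' deposited table Rgs5, Higd1b and Notch3 were higher in KO, by 0.50, 0.97 and 0.35 on the log2 scale, with adjusted p of 0.0299, 0.002 and 0.0403.

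A further 10 pericyte genes, listed separately, gave 2 lower and 7 higher, beside 24.4% and 22.4% of all genes tested. Pdgfrb, the PDGF receptor of mural cells, had 3453 and 3601 counts in WT and 4193 and 4685 in KO (log2 0.33, adjusted p = 0.0324). Aoc3 and Mcam rose by 1.73 and 1.15, and both are also made outside pericytes, Aoc3 in adipocytes and Mcam in endothelium. The 2 genes that fell were Heyl, a target of Notch signalling, by 0.85, and Kcnj8, the pore subunit that pairs with Abcc9, by 0.37 (adjusted p = 0.0237). These calls rested on few libraries: 3 were called higher without WT replicate 1 or without KO replicate 2, and 0 without WT replicate 2. The count called lower was 1 without any single library, and Pdgfrb and Kcnj8 had adjusted p of 0.143 and 0.132 without WT replicate 2.

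Reads of the 29 contractile genes made up 3.07% and 4.14% of the WT libraries and 0.339% and 0.333% of the KO libraries. The 5 pericyte genes made up 0.0525% and 0.0469% of WT and 0.0538% and 0.0559% of KO. Endothelial genes took 0.116% and 0.101% of WT reads and 0.162% and 0.177% of KO reads, and 7 of 10 rose (median 0.84), against 22.4% of all genes tested. Relative to the summed endothelial counts, the pericyte genes had ratios of 0.451 and 0.466 for WT, compared with 0.332 and 0.317 for KO. The same ratio of the contractile genes was 26.4 and 41.1 for WT, compared with 2.09 and 1.89 for KO. The 10 further pericyte genes went the other way, with ratios of 1.32 and 1.29 for WT, compared with 2.05 and 1.84 for KO. Aoc3, which is also made in adipocytes, held 59.1% and 55.2% of the reads of that list in WT and 71.8% and 70.6% in KO. This last ratio thus mostly follows Aoc3 and gives no direction for the other genes of the list. Rgs5 held 52.5% and 42.9% of the reads of the 5 pericyte genes in WT and 56.3% and 51.4% in KO. Both KO ratios of the contractile genes were below both WT ratios. No test was made on these sums.

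**Figure D3:**
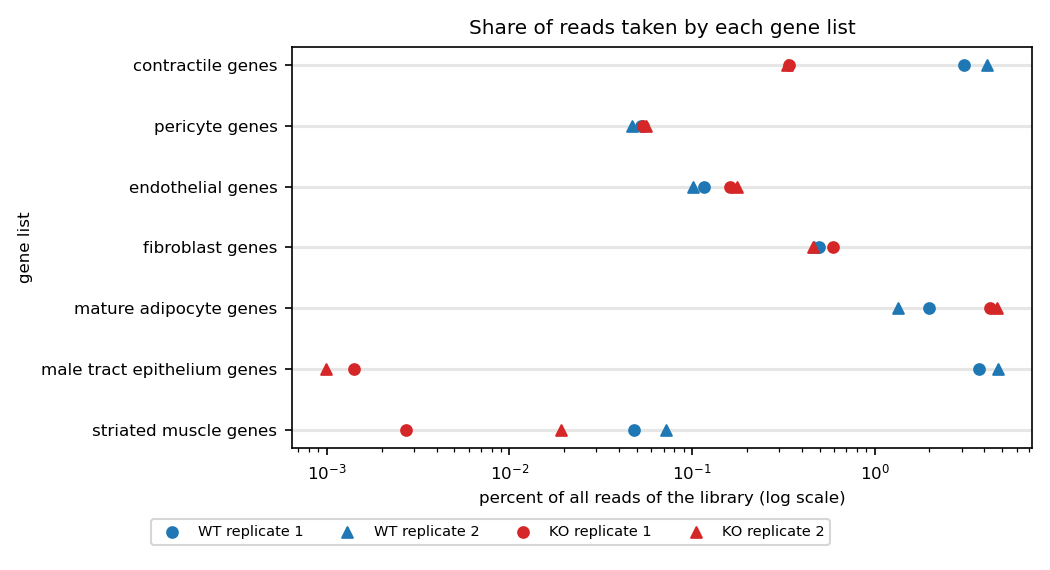
Share of each library's reads (percent, log scale) taken by each gene list in the 2 WT and 2 KO libraries. The contractile genes and the male tract epithelium genes are high in both WT libraries and low in both KO libraries, and the pericyte genes lie between 0.0469% and 0.0559% throughout.

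The contractile share and the male tract epithelium share were both higher in WT replicate 2 than in WT replicate 1. All 26 contractile genes that fell had more normalized counts in WT replicate 2, as had 8392 of 16682 genes tested with reads in both WT libraries. The median ratio of the 26 was 1.26 (1.02 to 1.44), where the median over all genes was 1.00. In the KO libraries 16 of the 26 were higher in replicate 2, with a median ratio of 1.10 (0.735 to 2.23). Over all genes tested with reads in both KO libraries, 8716 of 16185 were higher in replicate 2, with a median of 1.01. The part of the epithelial signal in the contractile differences was not tested. Striated muscle genes took 0.0484% and 0.0722% of WT reads and 0.0027% and 0.0191% of KO reads, so the KO replicate 2 value, like that of Smtnl2, was above that of KO replicate 1. Acta1 held 58.3% and 59.2% of the reads of that list in WT and 84.3% and 27.1% in KO. Of the 12 striated muscle genes tested, 4 had both KO libraries below both WT libraries and 4 had both above (40.6% and 38.9% of all genes). The summed share thus gives no direction for the single genes of that list. Fibroblast genes took 0.493% and 0.464% of WT and 0.593% and 0.460% of KO reads. Of these 10 genes, 3 rose and 7 were not called, and the count that rose is near the 22.4% of all genes tested.

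Levels of different genes were compared as normalized counts per kilobase of merged exon. In WT the highest means were Acta2 at 46230, Myl9 at 42630 and Actg2 at 34190. In KO they were Myl6 at 4763, Acta2 at 3266 and Csrp1 at 2946. Rgs5 moved from rank 22 of 35 in WT to rank 5 in KO, with a mean of 1684 against 2379 per kilobase. Actg2 went from rank 3 to 32, Cnn1 from 8 to 33 and Myocd from 30 to 35. Merged exons join all annotated isoforms, so a gene with long unused exons is understated.

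**Figure D4:**
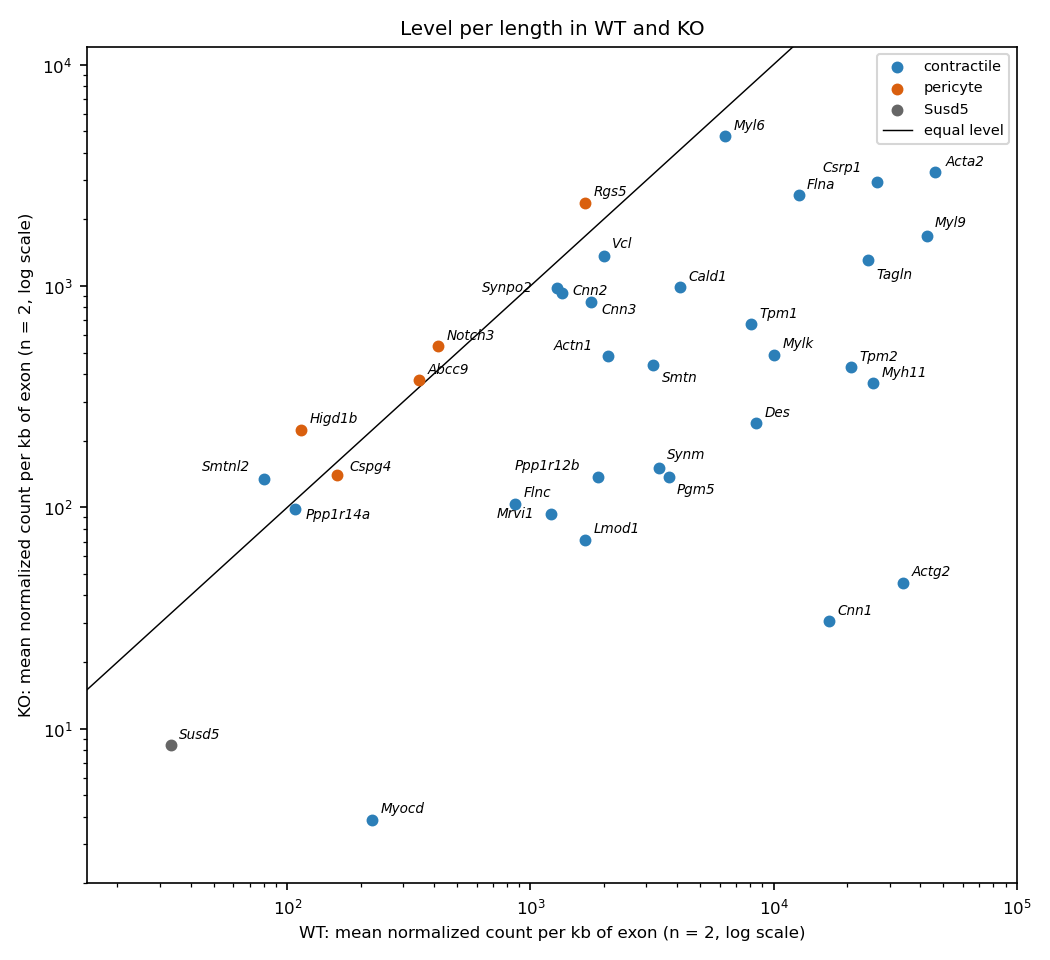
Mean normalized count per kilobase of merged exon in WT (horizontal) and KO (vertical), both on log scales, with 1 point for each of the 35 genes and a line at equal levels. Pericyte genes and the contractile genes Smtnl2, Ppp1r14a, Synpo2, Myl6, Cnn2 and Vcl lie near the line, and Actg2, Cnn1 and Myh11 are farthest below it.

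Within families, the make-up of the transcripts changed as well as their amount. Actg2 gave 43.4% and 41.8% of the 2 smooth muscle actins per kilobase in WT and 0.91% and 1.8% in KO. Among the 3 calponins, Cnn1 gave 84.0% and 84.8% in WT and 1.3% and 2.11% in KO, while Cnn2 went from 6.69% and 6.73% to 52.9% and 49.8%. Tpm2 gave 71.9% and 72.3% of the Tpm1 and Tpm2 pair in WT and 31.8% and 45.0% in KO. Smtnl2 went from 2.88% and 2.12% of the smoothelin pair to 18.7% and 27.4%. The filamins kept their order, with Flnc at 7.05% and 5.87% in WT and 4.34% and 3.41% in KO. These shares were not tested, and the replicates of a genotype were closer to each other than to the other genotype in each family named.

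**Figure D5:**
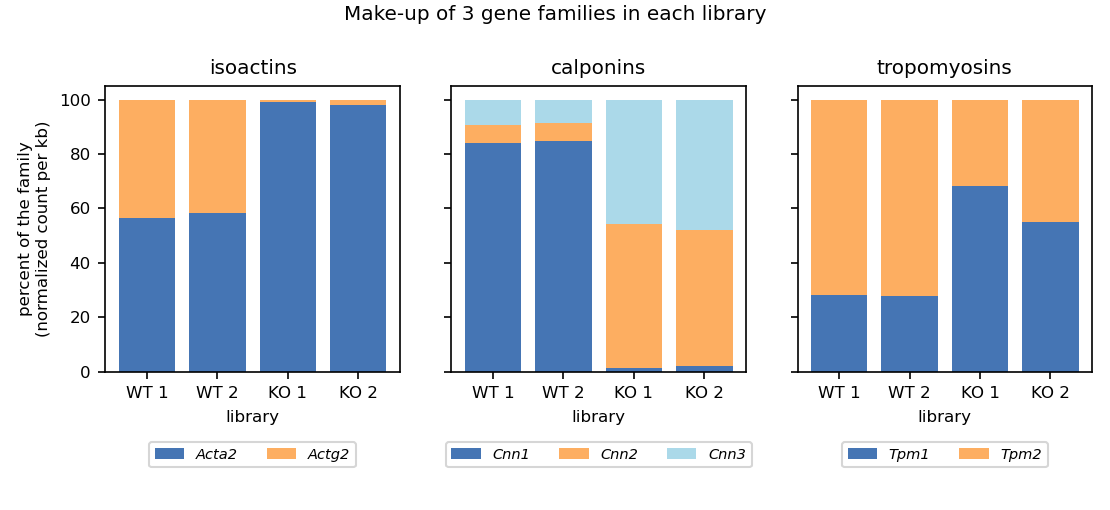
Share of each family's normalized counts per kilobase (percent) in the 2 WT and 2 KO libraries, for actins, calponins and tropomyosins. Cnn1 gives 84.0% and 84.8% of the calponins in WT and 1.3% and 2.11% in KO.

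Set against Acta2 per kilobase, genes ranged from those that nearly kept their proportion to those that did not, and the genes named here are examples without a cutoff. Ppp1r12b stood at 4.02% and 4.13% of Acta2 in WT and 4.23% and 4.19% in KO, and Mrvi1 at 2.79% and 2.51% against 3.11% and 2.63%. Tagln went from 56.5% and 50.0% to 39.5% and 40.8%. Myh11 went from 53.1% and 57.1% to 9.74% and 12.5%. Rgs5, in turn, went from 4.96% and 2.66% to 76.9% and 69.3%, while Acta2 itself fell 14.0-fold.

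Of 9 transcription factors of the smooth muscle programme that were tested, 3 were lower and 3 higher, close to the 24.4% and 22.4% of all genes tested. Srf had 1994 and 2227 counts in WT and 1256 and 1351 in KO, a 1.62-fold drop (log2 -0.69 ± 0.09, adjusted p = 0.0055), far smaller than that of Myocd. Mkl1, the actin-responsive cofactor of Srf, had 1076 and 1309 counts against 1052 and 912 (log2 -0.28, adjusted p = 0.161). Foxf2, a forkhead factor of visceral mesenchyme, had 550 and 601 counts against 39.4 and 23.4 (log2 -4.20 ± 0.29), and its relative Foxf1 fell by 2.93. Gata6 rose by 0.79, Tbx18 by 1.15 and Mef2c by 0.39. Without WT replicate 2 none of these 6 passed, and Srf then had an adjusted p of 0.0645 and Foxf2 of 0.0533. Without WT replicate 1 none of the 3 higher genes passed, and Foxf1 had an adjusted p of 0.0918.

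Genes that couple excitation to contraction gave 8 lower and 3 higher of 14, where 24.4% of all genes tested were lower and 22.4% higher. Kcnmb1 and Kcnma1, the subunits of the large-conductance calcium-activated potassium channel, fell by 5.37 and 3.60 on the log2 scale. Ppp1r12a, the main targeting subunit of myosin phosphatase, had 10431 and 13546 counts against 1794 and 1761 (log2 -2.74 ± 0.14). The 3 that rose were Rhoa by 0.47 and its kinases Rock1 and Rock2 by 0.29 and 0.89, and 0 of them passed without WT replicate 2 and 1 without any other library.

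Among receptors of smooth muscle, 4 of 9 fell and 2 rose, and the count that rose is near the 22.4% of all genes tested that did (24.4% fell). P2rx1, the ATP-gated channel of the vas deferens and bladder, had 9403 and 13580 counts in WT and 133 and 168 in KO, a 75.0-fold drop (log2 -6.23 ± 0.22). The muscarinic receptor gene Chrm2 had 313 reads over the 2 WT libraries and 0 over the 2 KO libraries, which makes WT at least 99.6-fold higher if up to 3 reads are allowed over both KO libraries. Chrm3 and the endothelin receptor Ednra fell by 3.34 and 1.33. Agtr1a, the angiotensin receptor, and Adra1d, an adrenergic receptor, rose by 1.10 and 0.62, and without WT replicate 2 neither passed (adjusted p 0.0512 and 0.151). Adra1d also did not pass without WT replicate 1 (0.117) or KO replicate 2 (0.0695).

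Other contractile and adhesion genes gave 9 lower and 4 higher of 16, with a median log2 difference of -0.35, beside 24.4% lower, 22.4% higher and a median of -0.01 over all genes tested. Pdlim3, a PDZ and LIM protein of the Z-disc, had 7070 and 8366 counts in WT and 105 and 126 in KO (log2 -6.05 ± 0.14). Itga8, an integrin of smooth muscle, and Hspb6, a small heat shock protein, had log2 differences of -3.76 and -3.55. Fhl1, a LIM protein of muscle, Itga7, a laminin-binding integrin, and Tln1, the adhesion protein talin 1, rose by 1.25, 1.42 and 0.35. Without WT replicate 2, 4 were called lower and 1 higher, and without WT replicate 1 or KO replicate 2 the count higher was 2. Tln1 did not pass without any 1 of the libraries (adjusted p 0.0806 to 0.143) or with edgeR (0.0612). The genes named here to spell out counts of 5 or fewer were chosen after their values were seen.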

How the data were processed

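Polyadenylated RNA of epididymal white adipose tissue was sequenced as single reads from 2 WT and 2 KO libraries. TopHat2 2.0.10 and HTSeq 0.5.3 were used on GRCm38, besides CASAVA 1.8 and DESeq2 1.4.5, per the submitters' processing notes. The annotation release and the strand setting of the counting are not given in the sources used here. The authors deposited a signal per gene and library, read counts divided by a size factor, which came out as whole reads for 100% of values (tolerance 0.01), so depth could be recovered. The authors' deposited table of KO against WT also gives log2 fold changes, a test score and p-values. Its score was not used.

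The test was limma (3.58.1, under R 4.3.3) with an intensity trend on log2(normalized count + 1) of genes with a mean of at least 10, with no block and a threshold of 0.05 after Benjamini-Hochberg adjustment. The alternatives were DESeq2 1.42.0 and edgeR 4.0.16 fitted to the recovered reads, TMM and upper-quartile scaling, robust moderation, a mean of at least 50 or no filter, a pseudocount of 0.5 or 5, the replicate number as a block, and each library left out in turn. Intervals have a level of 95%. Intervals of log2 differences come from the limma fit and reflect library-to-library spread. Floors on reads cover counting error only, and no molecular identifiers separate molecules from copies. Exon lengths, positions and shared 50-base windows came from GENCODE M21 (GRCm38), and promoters from a RefSeq table, which gave 36 promoters for 30 of the 35 genes. The 35 genes, the role groups and the other gene lists were chosen with earlier results of these data known. Values by library were given for all pericyte genes, for genes that did not move with their role group and for up to 5 genes of each role group with the highest mean, and each pathway list was described by its 3 genes with the smallest p, with Srf, Mkl1, Pdgfrb and Kcnj8 added. A gene of the list of other contractile and adhesion genes is counted in that list and is not reported here by name.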

Additional observations from a re-analysis of the deposited data

How the results depend on the processing

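Of the 27 genes called lower, 23 were called lower in all 14 alternatives, and the others were Cnn2, Myl6, Vcl and Susd5. Leaving out a single library left 23 to 25 genes called lower (23 contractile in each case), 0 to 3 called higher, 0 to 1 contractile gene called higher, 0 to 2 pericyte genes called higher and 0 to 1 called lower. The median of the contractile genes then ranged from -3.83 to -3.54 and that of the pericyte genes from 0.22 to 0.48. Over all genes, those called lower numbered 1163 (without WT replicate 2) to 3477, against 4074 with all libraries, and those called higher 650 (without WT replicate 2) to 2849, against 3735, with fewer samples in each such fit and the lone library of a group assumed to vary like the other group. DESeq2 called 3 genes higher, all pericyte genes, and TMM and upper-quartile scaling called 2 each, both pericyte genes. Fits of single members without leaving out a library gave the same side of the threshold in 344 of 350 cases. No such setting moved the median of all genes by over 0.1, and without WT replicate 2 the share of calls that were higher was 35.9% against 47.8%.

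The labels give both genotypes replicate numbers 1 and 2. With the replicate number as a block, 25 genes were called lower and 1 higher (Myl6 and Cnn2 lost their calls, with adjusted p of 0.091 and 0.0594, as did Adra1d, Mef2c, Pdgfrb, Rock1 and Tln1 of the other lists), and 3339 lower and 2737 higher over all genes. The differences between replicates correlated at -0.00904 across genes between the genotypes. The labels do not say whether a shared number marks a shared batch, and this was not tested.

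Directions changed for 2 members: leaving out single libraries gave -0.56 to 0.11 for Cspg4 and -0.44 to 0.14 for Ppp1r14a, and the cause was not tested. Depth limited Chrm2, which had no KO read.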

Other observations

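Genes of striated muscle, which share parts of the contractile apparatus with smooth muscle, did not move as a block. Of the 12 tested, 2 were lower (Acta1 and Actc1) and 1 higher (Myh1), beside 24.4% and 22.4% of all genes tested. Acta1, skeletal alpha actin, had 9138 and 13526 normalized counts in WT and 811 and 1955 in KO, and fell by 3.14 on the log2 scale (limma adjusted p = 0.0088). Actc1 had 60.1 and 92.1 counts in WT and 4.7 and 20.1 in KO (log2 -2.78, limma adjusted p = 0.0368). Myh1 had 3.1 and 2.8 counts in WT and 22.5 and 201 in KO (log2 4.13, limma adjusted p = 0.0392). Ckm, muscle creatine kinase, had 3249 and 4914 counts in WT and 11.2 and 899 in KO, and Tnnc2, fast troponin C, had 2836 and 3900 counts against 14.1 and 398. Neither passed (adjusted p = 0.108 and 0.0522). Myh4, a fast skeletal myosin, was at 3.1 and 0 counts in WT and at 15 and 1685 in KO, so 1 of the 4 libraries held nearly all of its reads. Titin (Ttn) had 11.2 and 8.4 counts in WT and 8.4 and 614 in KO. These genes were chosen after their values were seen.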
